A study of Mus musculus with 16 samples.

Results

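Bean1, Epas1, Rbfox1, Scml4, Tspan9, Podxl2, Sprn, Gpr137b and Pdlim4 are 9 genes of cardiac fibroblasts whose RNA moved one way when the transcription factor TCF21 was lost and the other way when it was gained. They were found by symbol in 3 tables of normalized counts, which between them list 19707 genes, 16135 of them in every table. The 9 were selected on their log2 fold changes in these same 3 comparisons, so their differences between groups are given as descriptions with a standard error and without a p. Bean1, Epas1, Rbfox1, Scml4 and Tspan9 were lower with loss and higher with gain, and Podxl2, Sprn, Gpr137b and Pdlim4 were higher with loss and lower with gain.

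TCF21 is a basic helix-loop-helix factor that marks the fibroblast lineage of the heart and is carried by resting fibroblasts. Factors of this class bind as dimers to short DNA words called E-boxes, and TCF21 is known both to raise and to repress transcription. Whether the 9 genes share a pathway was not tested. Their products range from a hypoxia factor and a splicing regulator to a tetraspanin, a sialomucin, a prion relative, a lysosomal membrane protein and a LIM protein of actin fibres.

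RNA came from flow-sorted cardiac fibroblasts in 16 libraries, and the mice were 8 to 12 weeks old. All mice had received tamoxifen and carried a Rosa26-loxP-STOP-loxP EGFP reporter, which Cre switches on and which served for sorting. Without injury, and 2 weeks after tamoxifen, there were 3 libraries of Tcf21-MerCreMer:Tcf21-fl mice and 3 of Tcf21-MerCreMer controls. After infusion of angiotensin II and phenylephrine for 1 week, a treatment that drives cardiac fibrosis, 2 libraries came from Tcf21-MerCreMer:Tcf21-fl mice and 3 from Tcf21-MerCreMer controls. The gain arm had the same infusion, with 2 libraries of Pdgfra-creERT:Col1a1-TCF21 mice and 3 of Pdgfra-creERT controls. The Cre of both loss groups and of their controls was driven by Tcf21, the gene under study, and that of the gain arm by Pdgfra. No library is shared between the 3 comparisons. The labels do not say which libraries came from separate animals, so any p measures the spread between these libraries only.

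Values are normalized counts, scaled separately within each of the 3 tables, and a library summed to between 27814940 and 40970391. Fold changes are on the log2(normalized count + 1) scale, within a table. Tcf21 itself checked the labels: it was 5.61-fold lower with loss without injury, 8.98-fold lower with loss after infusion and 2.44-fold higher with gain, with no overlap of groups (limma, Benjamini-Hochberg adjusted p of 4.22e-05, 0.00494 and 0.00446). The sorted cells carried all 10 fibroblast markers on a fixed list. These summed to 4005350 to 4253400 normalized counts in uninjured loss and 4225450 to 4596890 in controls, to 3214140 to 3720240 in infused loss and 3045890 to 3454670 in controls, and to 3184520 to 3451670 in gain and 4499270 to 4778400 in controls, so that the gain groups did not overlap. Cardiomyocyte genes, 11 or 12 of 12 listed, summed to 514 to 745 in uninjured loss and 672 to 837 in controls, to 611 to 697 in infused loss and 549 to 748 in controls, and to 1053 to 1105 in gain and 872 to 893 in controls. The myeloid list, with 12 to 14 of 14 genes listed, gave 1137 to 1557 in uninjured loss and 926 to 993 in controls, 505 to 822 in infused loss and 761 to 888 in controls, and 2604 to 5124 in gain and 1964 to 2871 in controls. Lyz2 supplied 1153 to 2771 of the gain sums and 887 to 1324 of those of their controls. Ptprc, Csf1r, Itgam, Fcgr1 and Tyrobp were higher in gain without overlap, and the other myeloid genes overlapped there. Mural markers, 10 of 10 listed, gave 31666 to 35391 in uninjured loss and 37067 to 41134 in controls, 29106 to 34313 in infused loss and 29365 to 32380 in controls, and 28069 to 30071 in gain and 33566 to 40039 in controls. Pdgfrb supplied 18816 to 33432 of these sums. In gain Pdgfrb was at 21606 to 23613, against 27522 to 33432 in controls. Des was higher there (1295 to 1402, against 635 to 899), and the other mural genes overlapped. In uninjured loss Pdgfrb overlapped, and Rgs5, Cspg4, Kcnj8, Abcc9, Notch3 and Higd1b were lower without overlap. The erythroid and platelet list, with 6 to 8 of 10 genes listed, summed to 374 to 1199 in uninjured loss and 263 to 299 in controls, to 183 to 504 in infused loss and 71.1 to 78.6 in controls, and to 328 to 385 in gain and 247 to 330.0 in controls. The part of these lists in the results was not tested. In such bulk samples fewer cells of a type and less RNA per cell cannot be told apart.

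To show what lies in front of these genes, the RefSeq promoter table of GRCm38.p6 was searched for E-boxes, spelled CANNTG and thus the same on both strands, in the 250 bases before each start. Promoters were on hand for 6 of the 9 genes and not for Epas1, Scml4 or Gpr137b. Of the first listed starts, 3 of 6 had an E-box, whereas 66.2% of all 32817 windows of this length in the table had one. The form CAGCTG was in none of the 6, against 4268 of all windows, and its one occurrence lay before the second listed Rbfox1 start. The E-box windows of 4 genes are printed, as the DNA just before a listed RefSeq start of genes on both sides of the pattern, with E-boxes in capitals. The Rbfox1 start lies inside the gene as annotated by GENCODE, and the Bean1 window runs past the GENCODE start of Bean1. Another Tspan9 start, with 1 E-box at -112, is not printed. Sprn and Pdlim4 had none in their windows. The Rbfox1 window was chosen after its sequence was seen. Bean1 lies on chr8:104170263-104170512 (plus strand), Rbfox1 on chr16:7069585-7069834 (plus strand), Tspan9 on chr6:128143579-128143828 (minus strand) and Podxl2 on chr6:88875047-88875296 (minus strand).
Bean1 promoter: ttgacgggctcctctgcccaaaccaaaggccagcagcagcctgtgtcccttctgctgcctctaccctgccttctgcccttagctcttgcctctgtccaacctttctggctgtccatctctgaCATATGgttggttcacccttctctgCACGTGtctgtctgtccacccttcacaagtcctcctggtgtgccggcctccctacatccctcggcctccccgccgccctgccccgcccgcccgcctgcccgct
Tspan9 promoter: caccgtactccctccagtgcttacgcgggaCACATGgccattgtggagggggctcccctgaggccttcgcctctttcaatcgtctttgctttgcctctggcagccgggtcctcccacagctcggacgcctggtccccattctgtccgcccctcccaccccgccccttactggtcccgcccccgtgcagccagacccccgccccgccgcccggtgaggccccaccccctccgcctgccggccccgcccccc
Podxl2 promoter: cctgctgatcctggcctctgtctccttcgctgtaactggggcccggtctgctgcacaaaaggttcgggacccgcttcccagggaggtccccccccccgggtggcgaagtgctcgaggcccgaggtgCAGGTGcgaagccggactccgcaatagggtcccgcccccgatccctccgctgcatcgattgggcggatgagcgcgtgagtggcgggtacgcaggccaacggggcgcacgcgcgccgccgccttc
Rbfox1 second promoter: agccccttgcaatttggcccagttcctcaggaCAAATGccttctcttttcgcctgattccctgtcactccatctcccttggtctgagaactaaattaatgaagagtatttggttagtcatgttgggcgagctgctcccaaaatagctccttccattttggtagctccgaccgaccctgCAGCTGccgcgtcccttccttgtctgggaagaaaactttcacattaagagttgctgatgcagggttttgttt
Counted to the start site, the first bases of the E-boxes stand at -128 and -103 in Bean1, -220 in Tspan9, -124 in Podxl2, and -218 and -72 in Rbfox1. A match is a run of letters and not a binding site, and the assay did not measure binding. The windows of Tspan9 and Podxl2 contain 72.0% and 70.4% G and C, that of Bean1 63.2% and that of the second Rbfox1 start 48.4%.

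Bean1 encodes a membrane protein that binds the ubiquitin ligase NEDD4 (gene ENSMUSG00000031872, chromosome 8, 104170442 to 104219122, plus strand, GRCm38). It was measured at 584, 541 and 835 normalized counts in uninjured loss libraries, against 1419.7, 1232 and 1048 in their controls. After infusion, loss libraries had 251 and 257 and their controls 439.7, 491 and 473. Gain libraries had 2802 and 2879.7, against 1007, 817 and 1154 in their controls. The groups did not overlap in any comparison, and the pair of gain libraries stood 2.43-fold or more above every control of their table. The log2 fold changes were -0.93 (SE 0.18), -0.88 (SE 0.13) and 1.53 (SE 0.15), in the order uninjured loss, infused loss and gain. Of the 5 genes that were higher with gain, Bean1 had one of the steadiest losses: its effect differed by 0.05 (SE 0.22) between infused and uninjured hearts.

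Scml4 belongs to the Polycomb-related proteins with a SAM domain (ENSMUSG00000044770, chromosome 10, 42860370 to 42960780, plus strand). It lies 20.0 megabases from Tcf21 on the same chromosome. Uninjured loss libraries had 1494, 1964 and 1382 normalized counts, against 1815, 2169 and 2082 in controls. With infusion there were 953 and 746 in loss libraries, against 1630.1, 1425 and 1519.9 in controls. Gain gave 8812 and 7856, against 2905, 2342 and 2208. The uninjured groups overlapped through the second loss library, and both infused comparisons were separate. Its log2 fold change was -0.34 (SE 0.14) in uninjured loss, -0.85 (SE 0.13) in infused loss and 1.75 (SE 0.13) in gain, so that the gain difference was 2.06 times as large as the infused loss difference and 5.18 times as large as the uninjured one on that scale. Scml4 is known from T cells, and the lymphoid list gave 45.4 to 69.0 in uninjured loss and 75.7 to 76.6 in controls, 129 to 136 in infused loss and 89.7 to 123 in controls, and 103 to 110 in gain and 100 to 192 in controls. No more than 4 of its 14 genes are listed in a table, Cd3d making up most of the sum, and its part in the Scml4 values was not tested.

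Rbfox1 encodes an RNA-binding regulator of splicing, best known from neurons and muscle (ENSMUSG00000008658, chromosome 16, 5885355 to 7411526, plus strand). It was rare in these cells. Uninjured loss libraries had 15.2, 53.6 and 3.34 normalized counts, against 107, 77.9 and 115 in controls. Infused loss libraries had 7.16 and 2.07, against 65.4, 47.3 and 55.1 in controls. With gain there were 579 and 556, against 132, 208 and 139.9. All 3 pairs of groups were separate, and the lowest gain library was 2.67-fold above the highest control. The log2 fold changes were -2.67 (SE 0.80), -3.50 (SE 0.50) and 1.85 (SE 0.23), and the loss values are low and unsteady: without 1 or other of the 2 infused loss libraries the second was -4.20 or -2.79. The glial and neuronal list, of which 5 or 6 of 12 genes are listed in a table, summed to 156 to 481 in uninjured loss and 720 to 798 in controls, but to 694 to 717 in infused loss and 475 to 628 in controls, and to 794 to 934 in gain and 517 to 668 in controls. Tubb3 gave 73.2 to 688 of that sum, and the part of these cells in the Rbfox1 values was not tested. Without uninjured loss library 3 the uninjured Rbfox1 difference was -1.74.

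Tspan9, a tetraspanin that organizes membrane microdomains (ENSMUSG00000030352, chromosome 6, 127961396 to 128143594, minus strand), was the most abundant of the 9. Uninjured loss libraries held 3639.8, 4904 and 3386 normalized counts, against 5692, 5725 and 6179 in controls. Infused loss libraries held 3379 and 3597, against 5161, 5539 and 5362. Gain libraries held 11281 and 13232, against 7144, 8133 and 6923. No pair of groups overlapped. The differences were of nearly one size: log2 fold changes of -0.58 (SE 0.13) in uninjured loss, -0.62 (SE 0.087) in infused loss and 0.73 (SE 0.11) in gain.

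Epas1 encodes HIF-2alpha, the oxygen-regulated partner of ARNT (ENSMUSG00000024140, chromosome 17, 86753700 to 86833410, plus strand). In uninjured hearts loss libraries had 2592, 2308 and 1778 normalized counts, against 2463, 2431 and 3082 in controls, and the groups overlapped. After infusion they had 1094 and 1222, against 2214, 1814 and 1888. Gain libraries had 3179 and 2950.2, against 2053, 1999 and 2167. The infused groups were separate in both arms. The log2 fold changes were -0.27 (SE 0.15), -0.76 (SE 0.12) and 0.56 (SE 0.087). Endothelial cells are the classic source of Epas1. The endothelial list, with 13 or 14 of 14 genes listed, summed to 12222 to 13910 in uninjured loss and 15905 to 16102 in controls, to 3215 to 3501 in infused loss and 4078 to 6986 in controls, and to 5377 to 6738 in gain and 8464 to 11358 in controls. Tek supplied 2483 to 15432 of these sums. Without Tek the list summed to 417 to 663 in uninjured loss and 625 to 734 in controls, to 579 to 732 in infused loss and 537 to 623 in controls, and to 433 to 1051 in gain and 660.0 to 845 in controls, and the groups overlapped each time. Of its genes other than Tek, 0, 3 and 3 were higher and 5, 2 and 2 lower without overlap in uninjured loss, infused loss and gain. Cdh5, a defining marker, was at 0 in all 3 uninjured loss libraries and at 10.2 to 12.9 in their controls, while Pecam1, another, was at 123 to 289.6 in those loss libraries and 104 to 137 in their controls. In gain Emcn was at 31.9 to 47.5, against 12.9 to 17.3 in controls, and Esam and Vwf were also higher without overlap. Erg was lower there, at 50.6 to 72.1 against 172 to 269, as were Sox18 (45.9 to 73.2, against 77.2 to 132) and Tek (4943 to 5687, against 7729 to 10698). The part of these cells in the Epas1 values was not tested. Without uninjured loss library 3 the uninjured Epas1 difference was -0.11, and without control 3 it was -0.15.

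**Figure D1:**
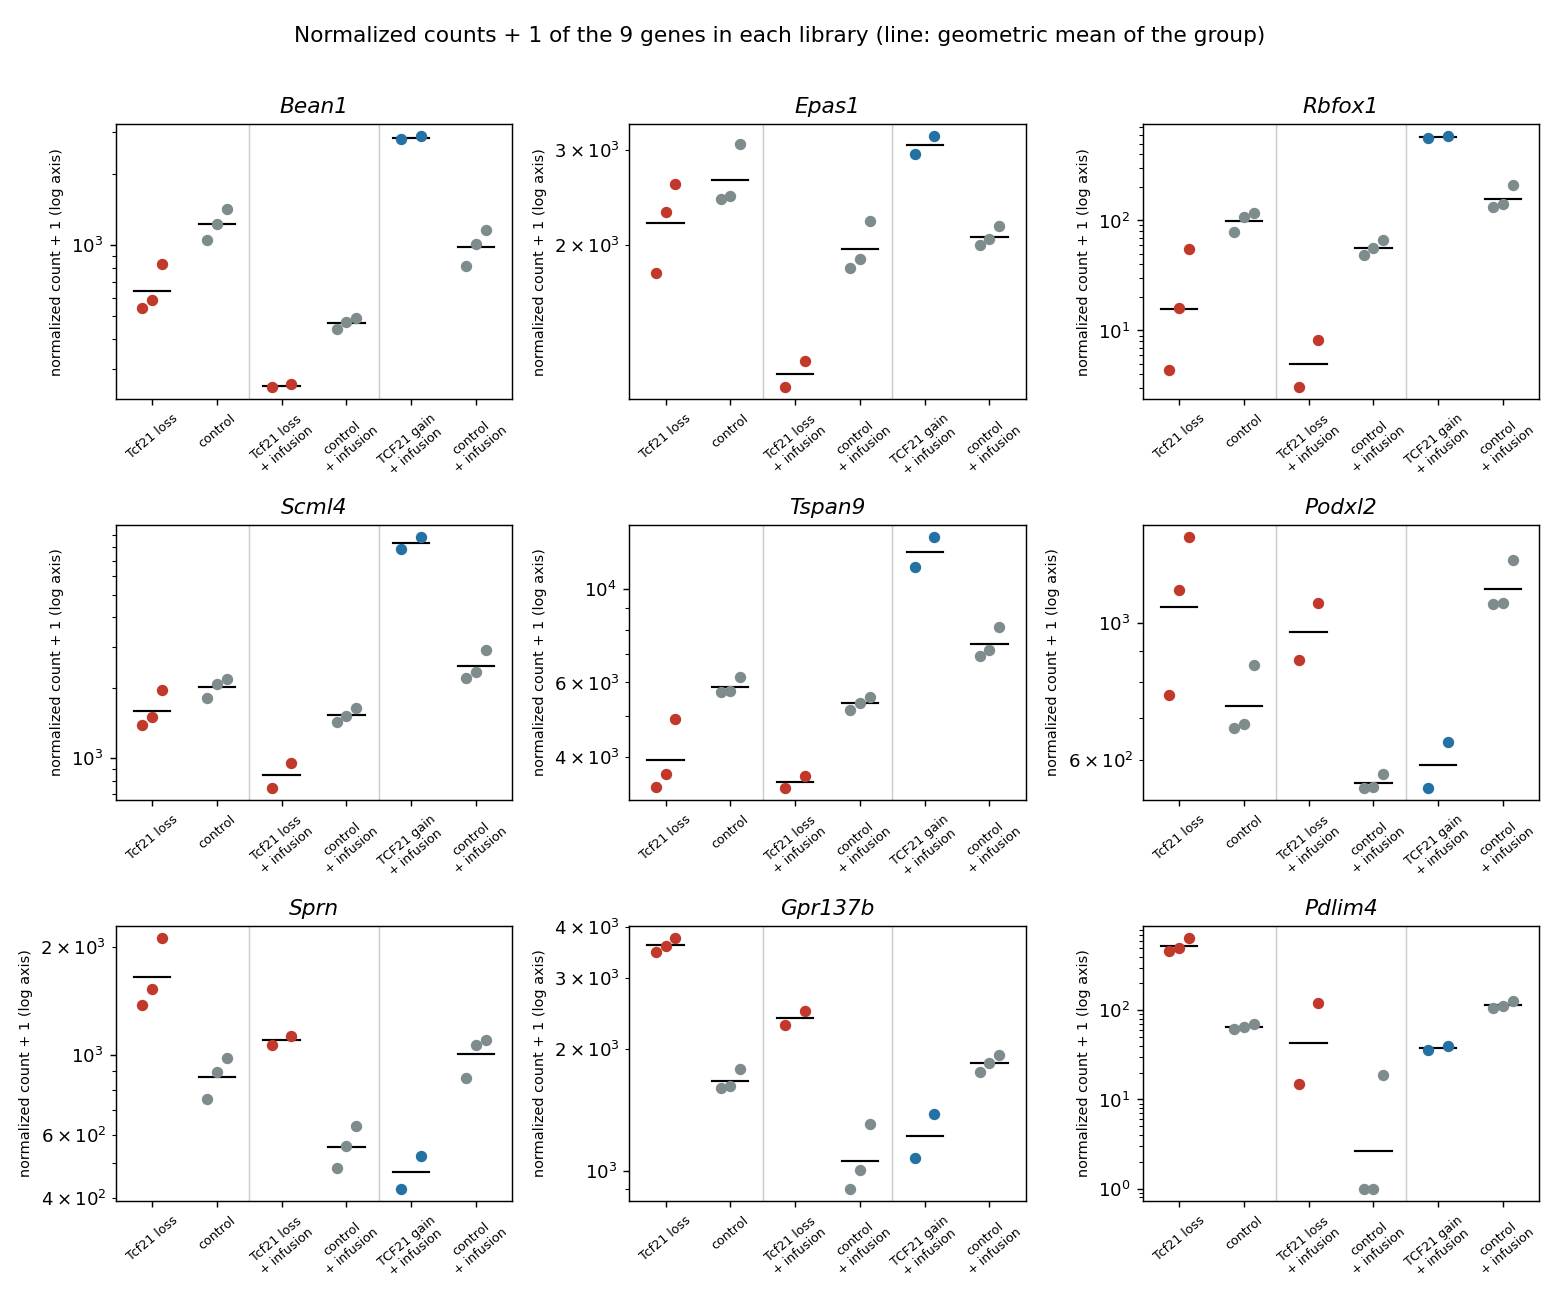
Normalized counts plus 1 of the 9 genes on a log axis, 1 point per library, with groups from left to right as Tcf21 loss, its control, infused loss, its control, infused gain and its control; lines are geometric means. The first 5 panels lie lower in loss and higher in gain than in the controls beside them, and the last 4 the other way. Pdlim4 has 2 infused controls at 0 normalized counts.

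The other 4 genes had the opposite order. Sprn encodes Shadoo, a GPI-anchored relative of the prion protein (ENSMUSG00000045733, chromosome 7, 140150628 to 140154877, minus strand). Its normalized counts were 1527, 1379.8 and 2115 in uninjured loss libraries, against 894, 978 and 752 in controls. They were 1067 and 1129 with infused loss, against 631, 484 and 556. They were 423 and 522 with gain, against 1099.8, 859 and 1066. The groups were separate throughout, and the log2 fold changes of 0.92 (SE 0.17), 0.98 (SE 0.14) and -1.09 (SE 0.16) were of like size in both directions. Some 159 bases of Sprn overlap Mtg1 on the other strand, and the library kit does not mark strand, so reads there cannot be told apart. Mtg1 was 1.53-fold higher in uninjured loss (adjusted p = 0.0416, limma), and its log2 fold changes in infused loss and gain, 0.05 (SE 0.14) and -0.11 (SE 0.16), were not past the threshold.

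Podxl2 encodes endoglycan, a sialomucin of the CD34 family that selectins can bind (ENSMUSG00000033152, chromosome 6, 88842558 to 88875044, minus strand). Uninjured loss libraries had 762, 1129 and 1373 normalized counts, against 673, 851 and 685 in controls, and the first loss library lay within the control range. Infused loss libraries had 1075 and 868, against 539.6, 540.2 and 567. Gain libraries had 539 and 640.3, against 1075, 1262 and 1069. Both infused comparisons were separate. The log2 fold changes were 0.53 (SE 0.21), 0.81 (SE 0.13) and -0.95 (SE 0.13), and the first was 0.34 without uninjured loss library 3. An antisense gene model, Gm15612, shares 16.4% of the 31-base words of Podxl2 and was measured at no more than 13.9 normalized counts in any library.

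Pdlim4 encodes a PDZ and LIM domain protein that binds alpha-actinin on actin stress fibres (ENSMUSG00000020388, chromosome 11, 54054928 to 54069014, minus strand). It gave the widest separation of all in uninjured hearts, with 494, 645 and 458 normalized counts in loss libraries, against 68.7, 64.3 and 60.9 in controls. The lowest loss library was 6.67-fold above the highest control. With infusion the loss libraries had 120.5 and 13.9, and the controls 0, 0 and 17.6. These overlapped, and no fold is drawn from them. Gain libraries had 39.1 and 35.0, against 110.3, 127 and 105, a log2 fold change of -1.59 (SE 0.26), beside 3.01 (SE 0.21) in uninjured loss. The infused loss table sets Pdlim4 apart: its controls averaged 5.86, against 64.6 and 114 in the controls of the other tables, 12.7-fold below the geometric mean of those 2 (normalized count + 1). For no other of the 9 genes did that ratio exceed 2.36. Tcf21 itself had a ratio of 3.30, its infused loss controls averaging 2042, against 7805 in uninjured and 5813 in gain controls. The controls averaging 114 were those of the gain arm, which had the same infusion, so infused controls differed between tables. Those tables were normalized separately and also differ in mouse line (Tcf21-MerCreMer against Pdgfra-creERT). Line and table cannot be told apart, and the cause of the low level was not tested. Without the first infused loss library Pdlim4 was under the filter of a mean of 10.

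Gpr137b encodes a lysosomal membrane protein that acts on the Rag GTPases of the mTORC1 pathway (ENSMUSG00000021306, chromosome 13, 13357620 to 13394014, minus strand). It had 3758, 3588 and 3474 normalized counts in uninjured loss libraries, against 1785, 1618 and 1604 in controls. Infused loss gave 2478 and 2285, against 1304, 902 and 1003. Gain gave 1378 and 1074, against 1749.7, 1844 and 1932. Read by itself the gene was separate in all comparisons, with log2 fold changes of 1.11 (SE 0.084), 1.17 (SE 0.16) and -0.60 (SE 0.12). These values are uncertain, because a near-identical copy, the pseudogene Gpr137b-ps, also lies on chromosome 13 and shares 34.8% of the 31-base words of Gpr137b. Between the best-matching transcripts of the 2 loci in GENCODE vM21, 1914 of 1933 aligned bases were identical (99.0%). A 90-base stretch of the coding sequence shows the likeness, with the mismatched bases in capitals. How reads were split between the copies was not tested.
Gpr137b: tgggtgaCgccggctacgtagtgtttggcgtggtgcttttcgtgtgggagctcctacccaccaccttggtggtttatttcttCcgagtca
Gpr137b-ps: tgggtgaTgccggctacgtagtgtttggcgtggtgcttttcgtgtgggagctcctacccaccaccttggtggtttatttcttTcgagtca
The copy moved the other way with loss. Gpr137b-ps fell to 66.9 ± 10.3 normalized counts in uninjured loss libraries, against 938 ± 67.1 in controls (SD, n = 3 each; 13.9-fold lower, adjusted p = 4.22e-05, limma). It fell to 53.7 ± 10.9 in infused loss (n = 2), against 686 ± 16.1 in controls (n = 3), 12.7-fold lower with an adjusted p of 0.000337 (limma). In gain it was 902 ± 100.4 (n = 2), against 1023 ± 108 (n = 3), and was not past the threshold (log2 fold change -0.18, SE 0.13, adjusted p = 0.507, limma). The pseudogene took 1.56% to 2.01% of the sum of both copies in uninjured loss and 33.1% to 38.5% in controls, 1.82% to 2.62% in infused loss and 33.9% to 43.7% in controls, and 41.4% to 43.6% in gain and 31.8% to 38.6% in controls. The sum of both, added after the data were seen, was 3673 ± 151 in uninjured loss and 2607 ± 77.6 in controls, 2435 ± 125 in infused loss and 1755 ± 193 in controls, and 2129 ± 315 in gain and 2865 ± 41.3 in controls. Summed, the copies kept the sign of Gpr137b with smaller log2 differences of 0.49 (SE 0.042), 0.48 (SE 0.12) and -0.44 (SE 0.11), and no pair of groups overlapped. These SEs come from the pooled spread of the sum within its groups and not from limma, so they cannot be set against those of Gpr137b.

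**Figure D2:**
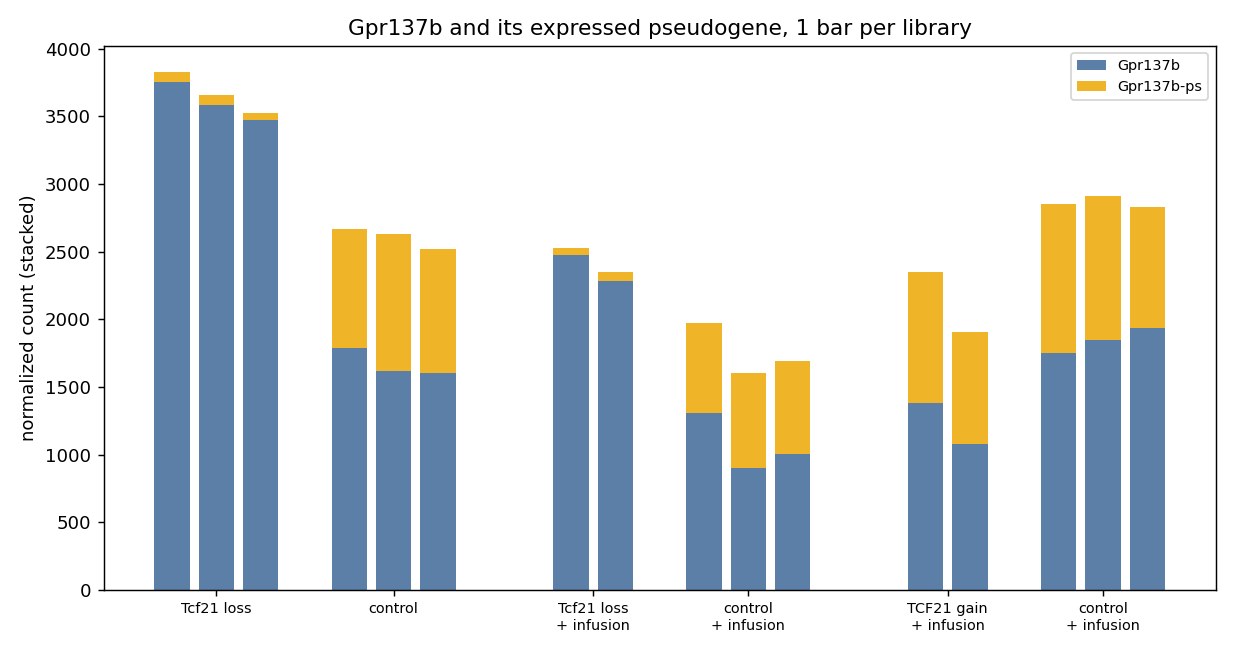
Normalized counts of Gpr137b (lower segment) and Gpr137b-ps (upper segment), stacked, 1 bar per library, each loss or gain group left of its control. Loss libraries have almost no upper segment (1.56% to 2.62% of the bar), and every other library has 31.8% to 43.7%.

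Side by side, the 9 genes differ in how gain compares with loss. The gain difference was larger than the infused loss difference, on the log2 scale and without regard to sign, for Scml4 (2.06 times), Bean1 (1.75 times), Tspan9 (1.18 times), Podxl2 (1.16 times) and Sprn (1.11 times). It was smaller for Epas1 (0.737 times), Rbfox1 (0.529 times) and Gpr137b (0.510 times). For Pdlim4 it was 0.529 times the uninjured loss difference. Loss itself was about as large with and without infusion for Bean1, Tspan9, Sprn and Gpr137b, whose loss effects differed by at most 0.07 on the log2 scale. For Epas1 and Scml4 it was lower by a further 0.50 (SE 0.19) and 0.51 (SE 0.19) after infusion, both having overlapped between uninjured groups. These differences chose the genes, and infusion goes with a separately normalized table, so nothing about infusion is read from them. The median over the 5 genes higher with gain was -0.58, -0.85 and 1.53 in uninjured loss, infused loss and gain, and that over the other 4 was 1.02, 1.08 and -1.02, while the median of all genes tested was -0.01, 0.00 and 0.01.

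**Figure D3:**
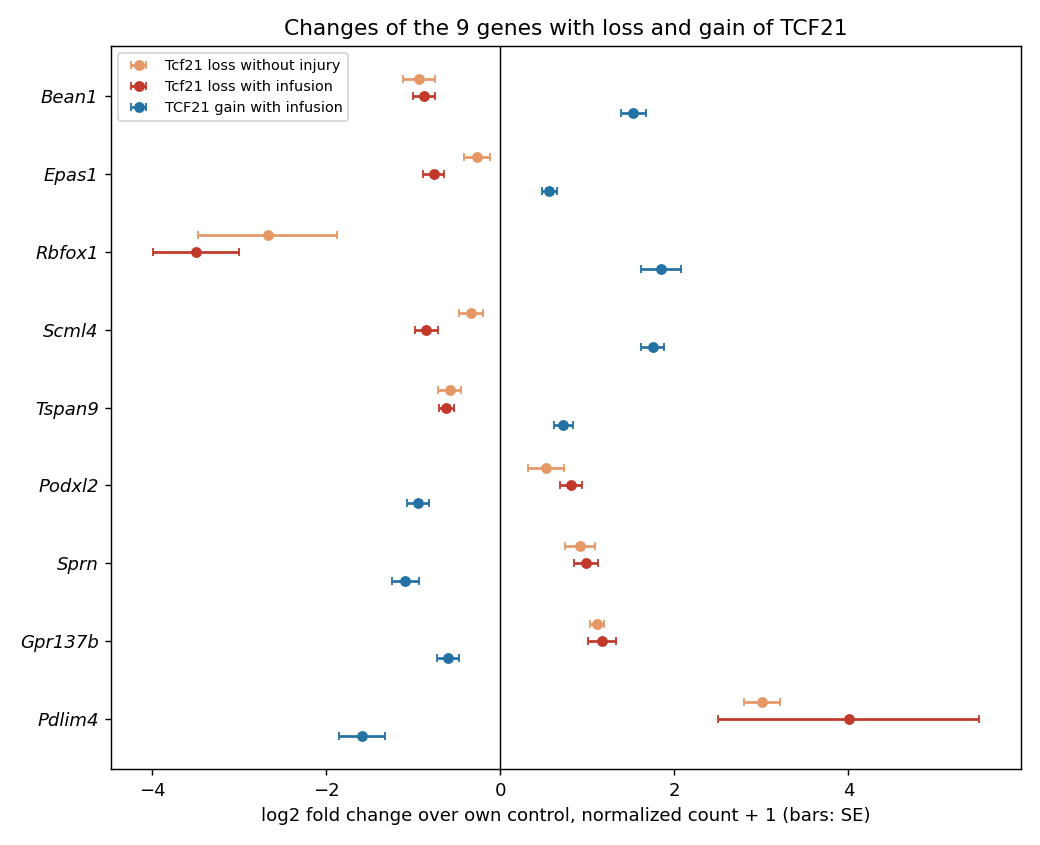
Log2 fold changes of the 9 genes over the controls of their own table, with standard errors, for uninjured loss, infused loss and gain. The loss points of each gene lie on one side of 0 and the gain point on the other. Rbfox1 has wide errors in both loss comparisons (SE 0.80 and 0.50), and the Pdlim4 point of infused loss, with the widest, depends on the pseudocount.

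The same limma fit over all genes gives the setting for these values. Past an adjusted p of 0.05 were 3.58% of 15544 genes in uninjured loss, 0.912% of 14799 in infused loss and 4.14% of 15369 in gain. All 9 genes passed the filter of a mean of 10 in every table, and 5, 8 and 9 of them were past that threshold. In uninjured loss 3 were higher and 2 lower, beside 1.63% and 1.96% of all genes; in infused loss 3 were higher and 5 lower, beside 0.324% and 0.588%; in gain 5 were higher and 4 lower, beside 1.57% and 2.57%. Groups did not overlap for 14.1% (higher) and 13.6% (lower) of all genes in uninjured loss, 17.3% and 17.7% in infused loss and 19.1% and 20.1% in gain, and for 6, 8 and 9 of the 9 genes. As these contrasts chose the genes, nothing is read from those counts. Genes past the threshold in both uninjured loss and gain numbered 58, of which 40 moved oppositely (7.18% of the loss calls and 6.28% of the gain calls), Bean1, Gpr137b, Pdlim4, Sprn and Tspan9 among them. For infused loss and gain there were 15, of which 13 moved oppositely (9.63% of the loss calls and 2.04% of the gain calls). Those 13 were all of the 9 genes but Pdlim4, together with Tcf21, Adamtsl2 (-1.07 with loss and 1.40 with gain on the log2 scale) and the gene models Gm2423, Gm53410 and Gm54268, which are named because of these values. The count of 13 ranged from 1 to 15 when 1 library at a time was left out (1 without the second infused loss library, 2 without the first or without the second infused loss control), and that of 40 from 9 to 62 (9 without the first gain control).

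**Figure D4:**
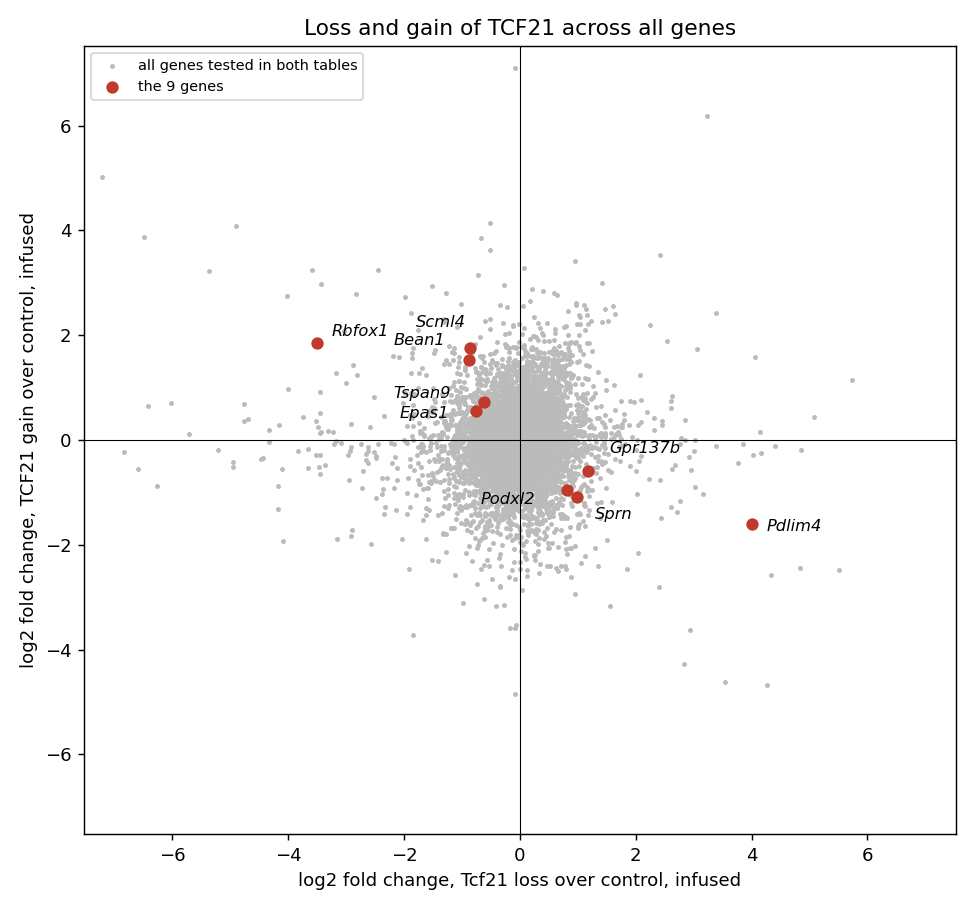
Log2 fold changes of 14319 genes in infused loss (horizontal) and gain (vertical), each over its control; grey points are all genes tested in both tables and red points the 9 genes. The 9 lie in the upper left and lower right quadrants by the way they were chosen; Rbfox1 (-3.50, 1.85) lies far to the left, and Pdlim4, whose horizontal value depends on the pseudocount, far to the right.

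Differences between groups were then removed, leaving how far each library deviated from its own group mean, a measure the choice of genes did not use. Over all 16 libraries none of the 9 genes followed Tcf21 past an adjusted p of 0.05 (two-sided exact permutation within groups, 5184 arrangements, Benjamini-Hochberg over 9 genes). Tspan9 and Sprn had the lowest p before adjustment. Tspan9 had r = -0.50 (p = 0.0438, adjusted 0.315, exact permutation) and rho = -0.64 (p = 0.0230, adjusted 0.207), and Sprn had r = 0.54 (p = 0.0700, adjusted 0.315) and rho = 0.53 (p = 0.0731, adjusted 0.329). Their signs were the reverse of those between groups, and with the 2 libraries farthest from the median Tcf21 deviation left out r was -0.65 and 0.59. Tspan9 was negative in each table, at -0.64, -0.79 and -0.95 in the uninjured loss, infused loss and gain tables, and Sprn positive in each, at 0.92, 0.49 and 0.44. The other 7 genes had r between -0.29 and 0.57 with adjusted p of 0.506 or more (exact permutation), and rho between -0.19 and 0.48 with adjusted p of 0.407 or more.

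Per kilobase of coding transcript, Tspan9 and Scml4 led the levels in control cells in each table. The length used was the median over all annotated coding transcripts of a gene, and the ranks depend on it. It was 748 bases for Tspan9, 1033 for Scml4 and 5516 for Epas1. By normalized count Scml4 averaged below Epas1 in uninjured (2022 and 2659) and infused loss controls (1525 and 1972). In gain controls it averaged above Epas1 (2485 and 2073). Tspan9 stood first, at 7841 ± 364 normalized counts per kilobase in the uninjured, 7158 ± 253 in the infused loss and 9894 ± 861 in the gain controls (SD, n = 3 each), and Scml4 second at 1958 ± 179, 1476 ± 99.4 and 2406 ± 358. Gpr137b, Epas1, Sprn, Bean1 and Podxl2 followed within 369 to 505 per kilobase in uninjured controls, and each overlapped the next in that order. In infused loss controls Bean1 stood alone below them at 166 ± 9.25. Rbfox1 and Pdlim4 were last in every table, at 71.0 ± 13.9 and 67.2 ± 4.06 per kilobase in uninjured controls, where they overlapped. They also overlapped in gain controls, at 114 ± 29.6 and 118 ± 11.9, but not in infused loss controls, at 39.8 ± 6.47 and 6.09 ± 10.6.

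Across the 16 libraries, after subtraction of the control mean of each table, the genes most like each of the 9 were sought among 11203 genes that averaged 50 or more in each table. The points share libraries and group structure, so r is a description only. Bean1 was closest to Gm2423 and B3gnt8 (r = 0.96 each), a glycosyltransferase gene in the second case. Scml4 was closest to the kinase gene Syk (0.96). Tspan9 was closest to Btbd3 (0.96) and the ubiquitin ligase gene Rnf144a (0.95). Epas1 had Ecpas (0.93) and the kinase gene Jak1 (0.92), and Rbfox1 had Rsl1 (0.95) and Rabl2 (0.93). On the other side, Sprn was closest to the transferrin gene Trf and to Ifi27 (0.95 each), Podxl2 to Izumo4 and Mpv17l2 (0.95 each), Gpr137b to Gpatch11 (0.96) and Gm53410 (0.95), and Pdlim4 to the cytokine gene Il15 (0.92) and to Vamp8 (0.90). Among themselves, Tspan9 and Sprn were the most opposed pair (r = -0.97).

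Relatives and known partners of the 9 genes were read from lists of 159 genes, of which 150 are listed in some table. In uninjured loss 4 of 139 tested were higher and 3 lower past the threshold, in infused loss 1 and 1 of 136, and in gain 5 and 6 of 144. List medians were 0.04, 0.03 and -0.04 on the log2 scale, against -0.01, 0.00 and 0.01 over all genes tested. Over all genes 3.58%, 0.912% and 4.14% were past the threshold.

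The tetraspanins held the most calls. Tspan3 fell to 1763 ± 38.9 normalized counts in infused loss (n = 2), against 8269 ± 200.1 in controls (n = 3), a log2 fold change of -2.23 (SE 0.082, adjusted p = 0.000113, limma). In uninjured loss it fell by 0.51 (SE 0.10, adjusted p = 0.0345), and in gain it was -0.06 (SE 0.090, adjusted p = 0.776). Tspan18 was the one relative past the threshold in opposite directions: it was -0.73 (SE 0.12, adjusted p = 0.0218) in uninjured loss and 0.64 (SE 0.13, adjusted p = 0.0420) in gain. In infused loss it was -0.30 (SE 0.16, adjusted p = 0.411). Tspan11, the nearest coding neighbour of Tspan9 at 7419 bases, fell to 66.5 ± 26.5 in gain, against 197 ± 13.2 (log2 fold change -1.61, adjusted p = 0.0284), where Tspan9 was higher. Tspan7 fell by 1.13 in gain (SE 0.11, adjusted p = 0.00540), and Tspan17 rose by 0.45 in uninjured loss (adjusted p = 0.0476). The remaining 20 of 23, 20 of 21 and 20 of 23 tetraspanins tested in uninjured loss, infused loss and gain were not past the threshold, Tspan4 among them.

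Of the 12 hypoxia factor genes and regulators beside Epas1, Egln1, a prolyl hydroxylase that marks HIF proteins for decay, rose to 1340 ± 514 in gain (n = 2), against 248.6 ± 57.3 in controls (n = 3; log2 fold change 2.40, SE 0.28, adjusted p = 0.00895, limma). It was also 1.22 (SE 0.60) and 1.64 (SE 0.62) in uninjured and infused loss, not past the threshold. Egln1 varied widely among controls of the loss tables, from 284 to 1273 in uninjured and from 212 to 1014 in infused ones. The gain libraries had 977 and 1703, and their controls 188 to 302. Neither Arnt (log2 fold changes -0.30, -0.26 and 0.04) nor Hif3a (0.66, 0.87 and 1.62) passed it in any comparison, nor did Hif1a in the 2 tables that list it (-0.11 and -0.42). Among 22 HIF targets, Slc2a1 rose by 0.62 in uninjured loss (adjusted p = 0.0486), and Ccnd1 rose by 0.92 in infused loss (adjusted p = 0.0162) and by 1.25 in gain (adjusted p = 0.00713), the same direction in both. Ndrg1 fell by 1.10 (adjusted p = 0.0205) and P4ha2 by 0.68 (adjusted p = 0.0157) in gain, where Epas1 was higher.

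Splicing partners of Rbfox1 moved with gain only as far as 3 of 15 genes: Khdrbs3 (2.61, SE 0.46, adjusted p = 0.0274) and Mbnl3 (1.11, SE 0.19, adjusted p = 0.0234) rose and Mbnl1 fell (-0.53, SE 0.10, adjusted p = 0.0366, limma). Khdrbs3 was at 398 and 1017 in gain libraries, against 64.0 to 131 in their controls. Its controls in the loss tables spread from 303 to 1069 (uninjured) and from 119 to 464 (infused). In loss none of 14 or 15 passed (limma; 4 and 3 at an unadjusted p under 0.05). Rbfox2, the abundant paralog, had log2 fold changes of 0.10, -0.07 and 0.10. Of the Polycomb list Ring1 rose by 0.58 (adjusted p = 0.0330) and Pcgf3 fell by 0.43 (adjusted p = 0.0473) in uninjured loss, and none of 22 and 23 passed in infused loss and gain (limma; 2 and 3 at an unadjusted p under 0.05). The Scml4 relatives Scmh1 (-0.03, 0.04 and -0.17) and Scml2 (-0.19, -0.57 and 0.56) were not past the threshold. Around Bean1, Nedd4 itself had -0.18 in infused loss and -0.29 in gain and did not pass, while the NEDD4 adaptor gene Ndfip1 rose by 0.33 in uninjured loss (adjusted p = 0.0438).

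For the genes higher with loss, close relatives gave few calls. Of the CD34 family, Cd34 had -0.06, -0.29 and -0.05 and Podxl stayed at 19.5 to 140.9 normalized counts, neither past the threshold. Prnp, the prion gene, had 0.26, -0.18 and -0.42, the last with an adjusted p of 0.0535 (limma). Among the PDZ-LIM genes none of 10 passed in any comparison (limma; 1, 2 and 2 at an unadjusted p under 0.05); Pdlim3 came nearest, at -0.53 in infused loss (adjusted p = 0.106) and -0.60 in gain (adjusted p = 0.122). Of 20 lysosomal mTORC1 genes beside Gpr137b, Flcn, the folliculin gene, fell by 0.52 in gain (adjusted p = 0.0414), and Gpr137 and Gpr137c did not pass.

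These calls rest on few libraries. All 7 in uninjured loss were lost without the first control (adjusted p between 0.0546 and 0.137), the second (0.0993 to 0.190) or the last (0.0942 to 0.195), and 1, 6 and 4 of them without loss library 1, 2 and 3 in turn. In gain, 9 of 11 were lost without the second gain library (adjusted p between 0.0585 and 0.206), 8 without the first control (0.0610 to 0.0940), 5 without the first gain library (0.0562 to 0.220) and 4 without the second control (0.0559 to 0.0773). Egln1 and Tspan7 in gain and Tspan3 in infused loss were past the threshold in each of these fits. Ccnd1 in infused loss was lost without the second control (adjusted p = 0.104) and without the first (0.115) or second (0.163) loss library. All are limma fits, and an arm left with 1 library is assumed to vary like the other.

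**Figure D5:**
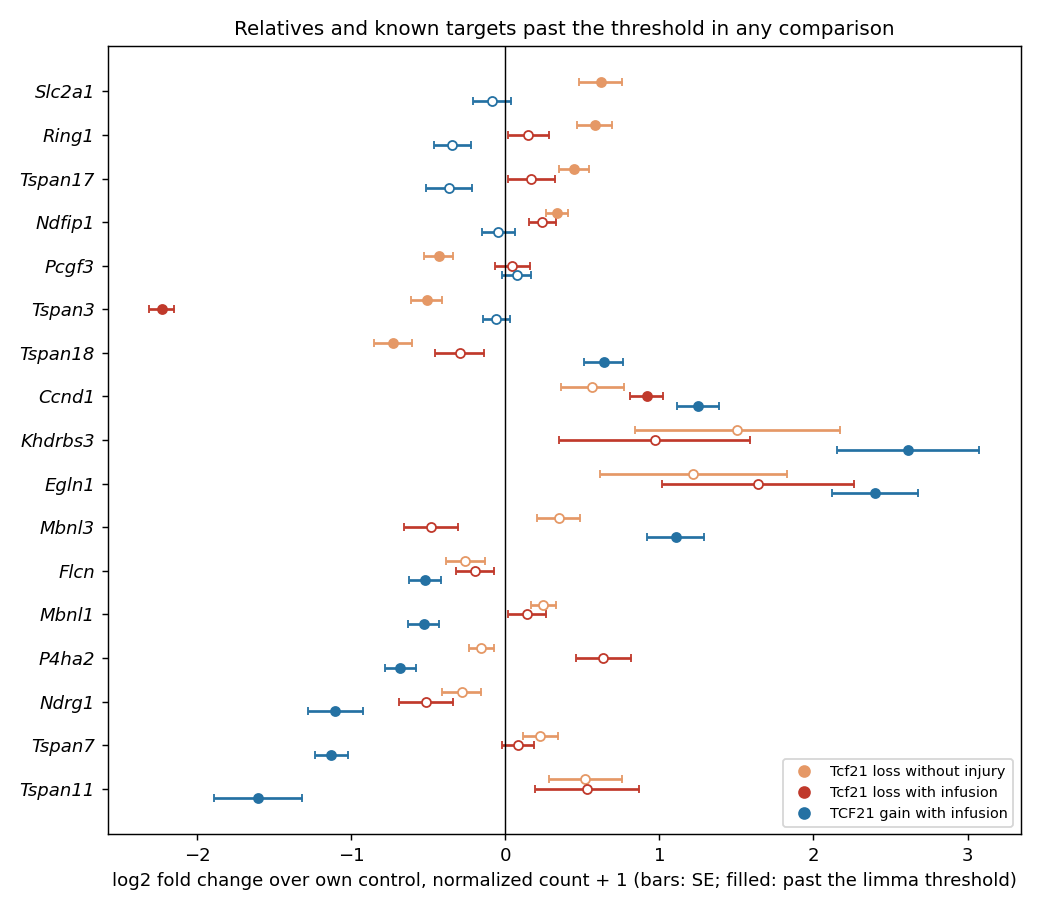
Log2 fold changes, with standard errors, of the 17 relatives and known targets past the limma threshold in at least 1 comparison; filled points are past it. Tspan3 in infused loss (-2.23) and Egln1 and Khdrbs3 in gain (2.40 and 2.61) lie farthest out, and Tspan18 has filled points on both sides of 0.

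Neighbours in the genome were looked at because overlapping genes can share reads when strand is not marked. Apart from Tspan11, Mtg1 and P4ha2 (31081 bases from Pdlim4), a neighbour was past the threshold for Podxl2, where Mcm2, a replication gene 8430 bases away, rose to 1235 ± 186 in gain, against 569.8 ± 159 (adjusted p = 0.0473, limma). Abtb1, which lies 574 bases from Podxl2 on the same strand, was not past it in any comparison. Slc22a4, beside Pdlim4, was 2.37-fold higher in uninjured loss with an adjusted p of 0.0529. Beside Tcf21 itself, the antisense model Gm10824, which covers all 2894 bases of the gene, was 5.73-fold higher in uninjured loss (adjusted p = 0.0144, limma); in infused loss and gain it was 0.50 (adjusted p = 0.471) and 0.07 (adjusted p = 0.930) on the log2 scale. The kit does not mark strand, and how reads were split between it and Tcf21 was not tested. Eya4, the nearest coding gene at higher coordinates (282789 bases from Tcf21), fell by 1.05 in gain (adjusted p = 0.0384, limma). It was not past the threshold with loss (-0.90 and -0.11). Tbpl1, nearer to Tcf21 at 85343 bases on the other side, was not past it in uninjured loss or gain (-0.29 and 0.20) and is not listed for infused loss.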

How the data were processed

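The deposited values are normalized counts per gene, a non-negative signal that the authors scaled within each of 3 tables and that is not whole reads; no source used here gives the scaling factors, so the depth in reads is unknown. Per the submitters' processing notes, the tools were kallisto and DESeq2 and the build GRCm38, with no versions. Libraries were made with the SMART-seq V4 kit, per the labels' protocols, which does not mark strand.

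From these values, log2(normalized count + 1) was fitted per table with limma 3.58.1 in R 4.3.3 (two-sided moderated test with a variance trend, no covariate), for genes with a mean of at least 10, and p-values were adjusted over all genes of a table by Benjamini-Hochberg, with 0.05 as the threshold. Python 3.11.15 with numpy 2.4.6, pandas 2.3.3, scipy 1.17.1 and matplotlib 3.10.9 did the rest, and the fit was tested on simulated data. Promoter sequences are from RefSeq (GRCm38.p6) and gene models and transcripts from GENCODE vM21. Words of 31 bases shared between transcripts of different genes were counted as a sign of ambiguous reads.

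The 9 genes and all lists were chosen with earlier results of these data known. Named beside them are the listed relatives past the threshold (at most 4 a list and comparison), fixed close family members, genome neighbours and the 2 most similar genes of each, of which 1 is not reported here. Tables were normalized separately and were compared only through differences from their own controls, apart from the levels given by table. Alternatives were other pseudocounts, filters, scalings, variance models, library weights, a replicate block and leaving out each library. The replicate numbers share no stated animal or batch and were not used for pairing.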

Additional observations from a re-analysis of the deposited data

Results flagged for a closer look

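Tspan3, a relative of Tspan9, lost more RNA with Tcf21 loss after infusion than without injury. The infused minus uninjured loss effect was -1.72 on the log2 scale (SE 0.14, adjusted p = 0.000440, limma interaction over both loss tables). Tspan3 was measured at 1791 and 1736 normalized counts in infused loss libraries, against 8197, 8115 and 8495 in controls, and at 7957, 9416 and 10274 in uninjured loss libraries, against 13610.5, 13156 and 12364 in controls. Both pairs of groups were separate. Infusion goes with the table, and the tables were normalized separately, so the setting and the table cannot be told apart.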

How the results depend on the processing

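Of 387 fold changes of the 9 genes under other settings, 373 moved by less than the spread between libraries, 14 moved further and none reversed. With a pseudocount of 8, Rbfox1 in infused loss was -2.36 and Pdlim4 in gain -1.43. With equal sums, Epas1 in gain was 0.66. With the Gpr137b copies summed, chosen after seeing the data, Gpr137b was 0.49, 0.48 and -0.44 in uninjured loss, infused loss and gain. Leaving out 1 library gave Rbfox1 in infused loss -4.20 to -2.79, Scml4 -1.03 to -0.68, Podxl2 0.66 to 0.97, and Gpr137b in gain -0.78 to -0.42. In uninjured loss it gave Epas1 -0.38 to -0.11, Rbfox1 -3.57 to -1.74, Scml4 -0.49 to -0.24 and Podxl2 0.34 to 0.77. In these fits 8 to 9 of the genes were opposite in sign. The count of 8 came without the first infused loss library, where Pdlim4 fell under the filter of a mean of 10 and was not counted. No gene changed sign. Rbfox1 and Pdlim4 drop out of the infused loss table with a mean of at least 50, which leaves 7 genes opposite in sign. Opposite calls in infused loss and gain over all genes were 7 with that filter, against 13 in the main fit. Pdlim4 was not among those 13, so the dropping of Rbfox1 and Pdlim4 does not account for that fall.

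Counts of calls were less steady. In uninjured loss, infused loss and gain, no variance trend gave 94, 72 and 25 calls, with 0, 1 and 0 related genes (28, 19 and 31 at an unadjusted p under 0.05 in limma) and 0 opposite calls in either pair (372 and 190 unadjusted). Library weights gave 949, 308 and 1013 calls, 11, 4 and 17 related genes and 82 and 32 opposite calls. Leaving out 1 library gave 88 to 891, 32 to 175 and 124 to 821 calls, 0 to 12, 1 to 3 and 2 to 15 related genes, and 9 to 62 and 1 to 15 opposite calls. The causes were not tested. Of 1496 values of related genes 95 lost and 19 gained a call and none reversed; the 180 within-group relations kept their side of the threshold.

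Whether the replicate numbers pair the libraries is unknown. Same-numbered deviations correlated at 0.025, -0.054 and -0.042, at 0.18 and -0.042, and at 0.095 and 0.062 in the 3 tables. With so few libraries a group, these values cannot decide it. The replicate block gave 227, 1462 and 1842 calls, 0, 20 and 27 related genes (33 unadjusted in uninjured loss) and, for infused loss and gain, 181 opposite calls. In infused loss and gain the third control had no same-numbered partner, and the block left very little from which to estimate spread. Those counts therefore cannot decide the pairing either. Depth in reads is unknown, so values under about 100 normalized counts, as for Rbfox1 and Pdlim4, carry a counting error that cannot be given.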
